A study of Homo sapiens with 11 samples.

Results

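The nuclear genes of the mitochondrial ribosomal proteins were described in H1299 cells that make mutant p53. They were every row of the deposited table whose symbol is MRPL or MRPS, a number and at most 1 letter, A, B or C, and they made 77 of its 45965 rows. Of these, 48 are MRPL genes, named for the large (39S) subunit, and 29 are MRPS genes, named for the small (28S) subunit. No symbol was repeated, and all 77 gene IDs are protein-coding genes in GENCODE 29.

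The mitochondrial ribosome translates the messages encoded in mitochondrial DNA, which specify core subunits of the respiratory chain and of ATP synthase. Its RNAs are made in the organelle, whereas its proteins are encoded in the nucleus, made in the cytosol and imported, so both genomes contribute to every particle. The small subunit binds the message and the large subunit joins amino acids. Naming and structure do not match for every gene: structures place the products of MRPS18A and MRPS30 in the large subunit, and the product of MRPS36 is a component of the 2-oxoglutarate dehydrogenase complex.

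H1299 is a human lung carcinoma line that has lost its own p53 protein. Every group was stably transfected (5 µg of DNA) and kept in neomycin at 800 µg/ml for 14 days. The constructs encode p53 with R273H or R175H, both of them hotspot mutations of the DNA-binding domain, and with arginine (R72) or proline (P72) at the polymorphic codon 72. There was 1 R273H R72 library, 4 R273H P72 libraries, 3 R175H R72 libraries and 3 R175H P72 libraries, and no library of cells without mutant p53 was analysed here. The labels place R273H P72 replicates 2, 3 and 4 and R175H R72 replicate 1 in batch b1 and the other 7 libraries in batch b2, so R175H P72 has no b1 library. Nothing in them tells whether a replicate is its own culture or clone. The p-values therefore cover the spread among these libraries alone, which may be technical. Which promoter drives the constructs is not stated.

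Libraries were QuantSeq 3′ libraries, in which reads come from the 3′ end of messages and were 75 bases long. The totals were 8346926 to 12829560 estimated counts per library. VIM, KRT8, KRT18 and CDH2, which this line expresses, lay between 111 and 1827 CPM (counts scaled to library size with TMM factors) in the 11 libraries. The lung lineage genes NKX2-1 and SFTPB did not exceed 1.59 CPM, so the labelled tissue of origin is not visible in them. SFTPC, CD3E, CDH5, COL1A2, LUM and HBA1, markers of mature lung and of other cells, had no count in any library, and the other markers of leukocytes, endothelium, fibroblasts and erythroid cells did not exceed 6.10 CPM.

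Promoters are shown first, because promoters of nuclear genes for mitochondrial proteins are known for sequences bound by ETS factors (GABP among them), YY1 and NRF1. RefSeq (GRCh38.p14) windows from 250 bases before to 50 after the gene start were had for 68 of the 77 genes, with 84 windows in all because some genes have several starts. An ETS-type sequence, CCGGAAG on either strand, was present in 32 of the 84 windows (38.1%), against 10.3% of all 35116 windows in the same table. A YY1-type sequence, AAGATGGC on either strand, was in 23 (27.4%), against 2.89% of all windows. An NRF1-type sequence, GCATGCGC on either strand, was in 6 (7.14%), against 3.05%. At least 1 of the 3 was in 46 windows (54.8%), against 14.9% of all. The ETS-type and YY1-type sequences can overlap by the letters AAG, which occurred in 0 of the windows of these genes. Counted by gene, 29 of the 68 (42.6%) held the ETS-type sequence in some window, against 12.2% of the 27305 symbols in the promoter table, which were not matched on gene type. The median GC content was 60.3% in the windows of these genes and 58.7% in all windows. Both subunits carried them. The ETS-type sequence was in 35.3% of the 51 MRPL windows and 42.4% of the 33 MRPS windows, and the YY1-type sequence was in 27.5% of the MRPL windows and 27.3% of the MRPS windows. These matches are letters in a window and do not show binding.

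The windows of 5 genes whose levels differed between libraries in the comparisons that follow are printed from 5′ to 3′ on the strand of the gene, with matches to the ETS-type sequence (or its reverse complement CTTCCGG) and the YY1-type sequence in capitals. MRPS34 (chr16:1773085-1773384, minus strand) holds 3 ETS-type matches, MRPL54 (chr19:3762432-3762731, plus strand) and MRPL40 (chr22:19432295-19432594, plus strand) hold 1 each, and the first of the 3 windows of MRPS22 (chr3:139343744-139344043, plus strand) holds 3. MRPL38 (chr17:75904835-75905134, minus strand) holds 1 ETS-type match and 1 YY1-type match, the second lying just after the gene start. MRPS28, whose level also differed in a comparison that follows, had no window and was not searched.
MRPS34: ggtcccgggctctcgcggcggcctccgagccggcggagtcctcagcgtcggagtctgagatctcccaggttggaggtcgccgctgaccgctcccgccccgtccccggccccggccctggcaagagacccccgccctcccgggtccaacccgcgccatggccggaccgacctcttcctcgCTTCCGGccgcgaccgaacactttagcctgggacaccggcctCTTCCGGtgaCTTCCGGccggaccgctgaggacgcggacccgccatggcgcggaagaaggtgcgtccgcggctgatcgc
MRPL54: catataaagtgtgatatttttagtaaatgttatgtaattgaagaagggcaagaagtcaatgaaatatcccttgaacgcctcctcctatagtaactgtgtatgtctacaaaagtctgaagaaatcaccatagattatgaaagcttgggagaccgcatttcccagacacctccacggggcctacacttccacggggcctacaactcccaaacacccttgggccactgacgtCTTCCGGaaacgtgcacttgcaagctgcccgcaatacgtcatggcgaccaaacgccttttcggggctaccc
MRPL38: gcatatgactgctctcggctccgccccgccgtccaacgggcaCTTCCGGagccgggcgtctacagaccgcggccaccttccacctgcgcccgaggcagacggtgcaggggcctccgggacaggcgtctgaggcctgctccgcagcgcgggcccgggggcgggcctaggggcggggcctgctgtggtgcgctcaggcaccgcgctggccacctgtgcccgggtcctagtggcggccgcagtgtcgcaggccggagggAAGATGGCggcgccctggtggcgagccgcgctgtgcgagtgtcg
MRPL40: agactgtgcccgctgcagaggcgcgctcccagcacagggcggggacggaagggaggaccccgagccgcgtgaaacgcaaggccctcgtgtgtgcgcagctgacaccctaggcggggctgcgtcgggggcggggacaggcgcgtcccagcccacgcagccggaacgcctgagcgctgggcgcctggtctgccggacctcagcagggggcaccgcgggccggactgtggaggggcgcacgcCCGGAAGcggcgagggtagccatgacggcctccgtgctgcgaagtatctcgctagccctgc
MRPS22: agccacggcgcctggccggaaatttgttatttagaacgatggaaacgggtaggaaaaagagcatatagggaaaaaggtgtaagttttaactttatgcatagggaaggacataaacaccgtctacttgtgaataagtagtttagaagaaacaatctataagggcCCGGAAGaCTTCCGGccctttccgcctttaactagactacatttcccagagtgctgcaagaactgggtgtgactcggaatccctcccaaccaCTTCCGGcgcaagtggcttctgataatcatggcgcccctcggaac

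All 77 genes passed the filter on low counts, which a count of about 10 in 1 library satisfies, because the smallest group is a single library. The levels given in CPM are tag counts, and they order genes by tags, not by messages per cell. MRPS27, whose product is a pentatricopeptide repeat protein of the small subunit, had the highest mean of all, 284 CPM, with 254 to 319 CPM over the libraries. MRPS26, a protein specific to the mitochondrial small subunit, followed with a mean of 168 CPM and a range of 116 to 202 CPM. On the large subunit MRPL40, in the region deleted in 22q11.2 syndrome, led with a mean of 73.4 CPM and MRPL1, the counterpart of the bacterial L1 stalk protein, came next with 48.7 CPM. At the other end MRPL49 averaged 0.382 CPM with 1 to 9 counts per library, and MRPL36, counterpart of the smallest bacterial ribosomal proteins, 0.392 CPM. The lowest MRPS genes were MRPS30 at 0.697 CPM and MRPS2, counterpart of bacterial S2, at 0.973 CPM.

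**Figure D1:**
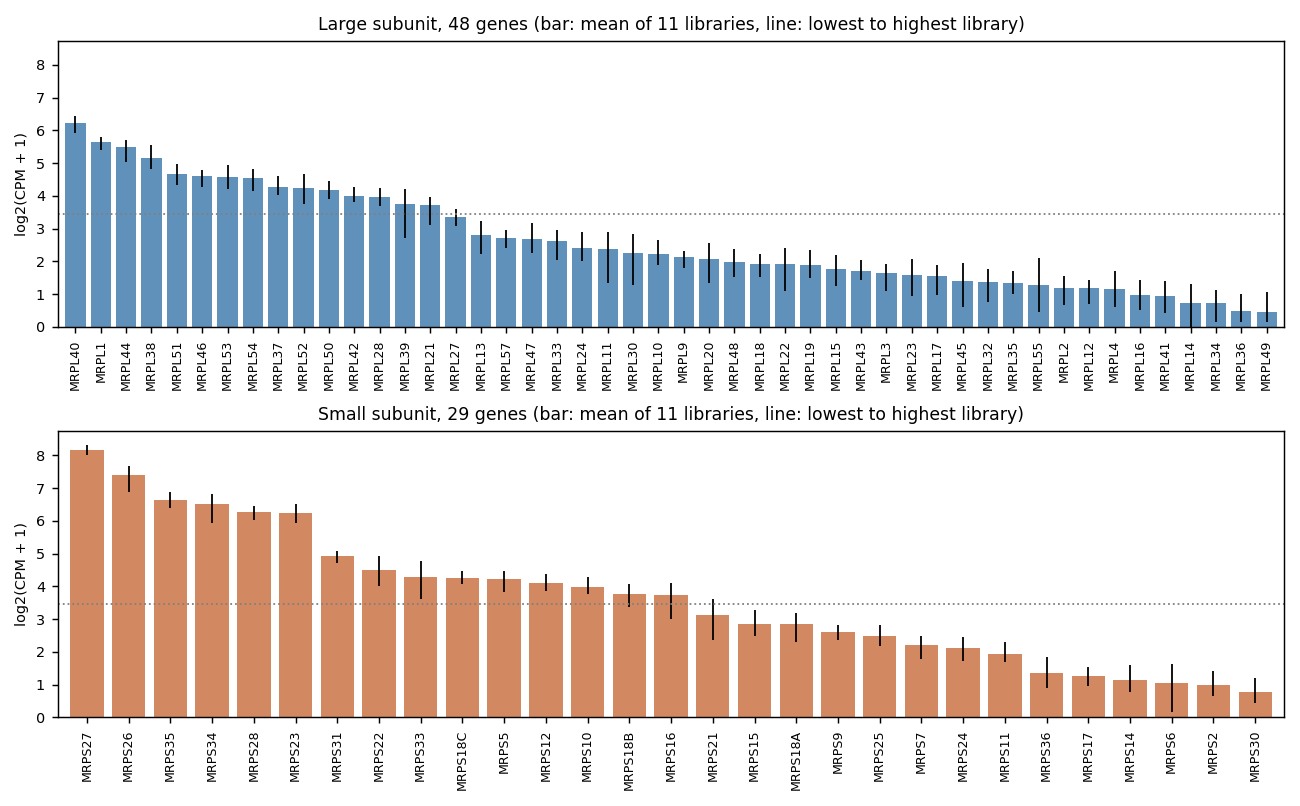
Mean level of each gene over the 11 libraries, as log2(CPM + 1), in falling order for the large (top) and small (bottom) subunit; black lines run from the lowest to the highest library and the dotted line marks 10 CPM. Few genes carry most tags: MRPS27 reaches 284 CPM, MRPL40 reaches 73.4 CPM, and 47 of the 77 genes lie under 10 CPM.

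Tags were concentrated in a few genes, more so on the small subunit. The 5 highest MRPS genes held 71.8% of the summed CPM of their subunit, and the 5 highest MRPL genes 45.9% of theirs. The median gene had a mean of 3.53 CPM among the 48 MRPL genes and 12.2 CPM among the 29 MRPS genes. There were 8 genes under 1 CPM, 39 from 1 to 10, 23 from 10 to 50, and 7 at 50 or more, of which 6 are MRPS genes and 1, MRPL40, is an MRPL gene. Together the 77 genes took 0.142% to 0.163% of all counts in a library. Depth set what could be seen: for R72 over P72 on R175H the median standard error of the log2 fold change was 0.13 for the 30 genes with at least 10 CPM and 0.35 for the 47 below.

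MRPS18 exists as 3 related genes, and they differed in tags, with means of 6.2 CPM for MRPS18A, 12.5 CPM for MRPS18B and 17.9 CPM for MRPS18C. None of the 3 was called in any of the 6 comparisons. MRPS18C shares 1956 exonic bases with ABRAXAS1 on the opposite strand, and the use of strand in counting is not stated, so its tags cannot be told apart from those of its neighbour where the 2 overlap. Of the 77 genes, 34 share exonic bases with another counted gene, 24 of them on the opposite strand and 11 on the same strand. Pseudogenes are a further uncertainty: GENCODE 29 lists 75 for 34 of the genes, none of which is a row of the table.

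The sums over each subunit give the balance between them. The large subunit summed to 480 CPM in the R273H R72 library and to 464 ± 14.8 CPM in R273H P72 (SD, n = 4), against 495 ± 9.29 CPM in R175H R72 and 528 ± 22.01 CPM in R175H P72 (SD, n = 3 each). The small subunit summed to 949 CPM in the R273H R72 library and to 983 ± 32.5 CPM in R273H P72 (SD, n = 4), against 989 ± 6.68 CPM in R175H R72 and 1034 ± 85.7 CPM in R175H P72 (SD, n = 3 each). The large-subunit sum of every R273H library lay below that of every R175H library, with 451 to 484 CPM in the 5 R273H libraries and 485 to 542 CPM in the 6 R175H libraries, though 484 and 485 CPM nearly meet. The small-subunit sums overlapped between all groups that have several libraries.

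The ratio of the large sum to the small sum was 0.505 in the R273H R72 library, and 0.511, 0.453, 0.445 and 0.481 in R273H P72 (replicates 1 to 4). It was 0.504, 0.505 and 0.493 in R175H R72 (replicates 1, 2 and 4) and 0.488, 0.511 and 0.535 in R175H P72. All 3 R175H R72 values lay inside the R175H P72 range. On the log2 scale the ratio of R72 minus that of P72 was -0.03 on R175H, against a pooled SD between libraries of 0.05. On P72 the log2 ratio of R273H minus that of R175H was -0.12, with a pooled SD of 0.08. The 3 R273H P72 libraries below 0.49 are all of batch b1, and the fourth, of batch b2, lay at 0.511, within the R175H P72 range. Within batch b2 alone, with 1 R273H P72 library, the difference was -0.000525. The 1 R175H R72 library of batch b1 stood at 0.504, beside 0.505 and 0.493 in the b2 libraries of its group. The part of batch in these ratios was not tested. A score of this kind gets no p-value here.

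**Figure D2:**
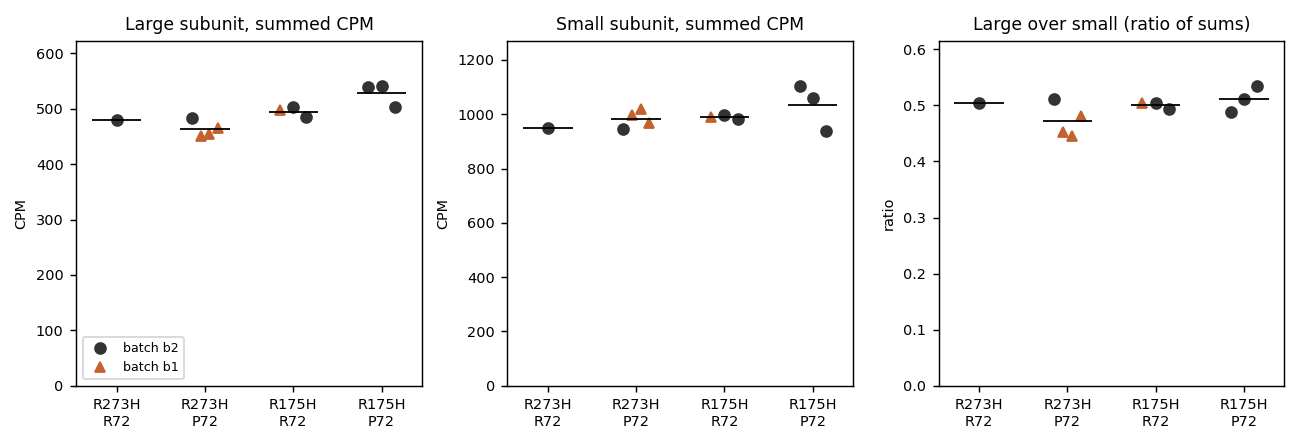
Summed CPM of the large subunit (left) and the small subunit (middle) and their ratio (right) in each of the 11 libraries; bars are group means, circles batch b2 and triangles batch b1. The 3 lowest ratios, 0.445 to 0.481, are the R273H P72 libraries of batch b1.

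The first comparison asked what the codon 72 form does on R175H, with 3 R72 and 3 P72 libraries. MRPS34 was the only one of the 77 genes called (edgeR quasi-likelihood test, adjusted p under 0.05 over all 16324 genes tested), and it fell. Of all genes tested 1.13% were called, and 0.815% were called lower in R72, so that 1 of 77 (1.30%) is near that background. The median log2 fold change was -0.01 over the large subunit and 0.01 over the small subunit, with 24 of 48 and 16 of 29 above zero, and 0.00 over all genes.

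MRPS34 (ENSG00000074071, chr16:1771890-1773155, minus strand, hg38) encodes a protein of the mitochondrial small subunit, and inherited defects of it cause a Leigh-like disease with low mitochondrial translation. It had 95.9, 72.5 and 60.1 CPM in R175H R72 (replicates 1, 2 and 4), against 108, 112 and 104 CPM in R175H P72. The groups did not overlap, and the spread was wider in R72 (76.2 ± 18.2 CPM, SD, n = 3) than in P72 (108 ± 4.15 CPM, SD, n = 3), with the b1 library the highest of the R72 values. In bulk RNA, fewer cells that express a gene and less of its RNA per cell cannot be told apart. The log2 fold change was -0.60 (SE 0.11, edgeR adjusted p = 0.00692), a 1.52-fold lower level. Within batch b2 it was -0.70 (adjusted p = 0.00244). The call was lost without R175H P72 replicate 2 or without R175H R72 replicate 2, and without a batch term (log2 fold change -0.50, adjusted p = 0.351). The last 500 bases of its transcripts are 58.7% GC. Library slopes on GC, in log2 units per 10% GC over all genes, were -0.087 and -0.056 in the 2 b2 libraries of R175H R72. They were 0.0069 to 0.030 in R175H P72. The b1 library of R175H R72 had 0.078, the highest of the 11 libraries. Its MRPS34 value was the highest of its group and below every P72 value. After correction for GC the fold change was -0.50 with an edgeR adjusted p of 0.0343. With GC correction and a replicate block together it was -0.51 (edgeR adjusted p = 0.0686), which is no call.

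The genes next in rank did not pass. MRPL54 had a log2 fold change of -0.50 (SE 0.12) with an edgeR adjusted p of 0.0532, and it is taken up with both hotspots. MRPL38, a protein of the central protuberance of the large subunit, had -0.36 (SE 0.11, edgeR adjusted p = 0.125). MRPL53 had -0.33 (SE 0.13, edgeR adjusted p = 0.229). It shares 608 exonic bases with CCDC142 on the same strand, which had 2374 counts, against 2526 for MRPL53. MRPS28 had 0.23 (SE 0.10, edgeR adjusted p = 0.286). These values order the genes by p and show no call.

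The 77 genes were also counted by the GC content of their 3′ ends. Of the 30 genes with over 50% GC in their last 500 bases 10 were above zero for R72 on R175H and the median was -0.06, whereas of the 47 others 30 were above zero and the median was 0.02. The median GC of these ends was 47.0% for the 77 genes and 46.2% for all genes tested, and 4 of the 77 (5.19%) lie on chromosome 19, against 7.47% of all. In R273H over R175H on P72, 12 of the 30 were above zero (median -0.13), against 32 of the 47 (median 0.09). The medians also fell lower over 50% GC over both hotspots (-0.08 against 0.01) and in R273H over R175H on R72 (-0.13 against -0.01). They ran the other way for R72 on R273H (-0.03 against -0.10) and for the difference of the R72 effects (0.01 against -0.16). The part of GC in these fold changes beyond the corrected fits was not tested.

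On R273H a single R72 library stood against 4 P72 libraries, so its spread is assumed to be that of the other groups. None of the 77 genes was called, nor was any gene in the table (0%). At an unadjusted p under 0.05 there were 3 (3.9%, beside 7.75% of all genes), all lower in R72: MRPS5, MRPL54 and MRPL55. DESeq2 called none of the 77 genes in this comparison and 112 genes in all, and 1265 of all genes had an edgeR unadjusted p under 0.05. DESeq2 gave no adjusted p to MRPS5, MRPL54, MRPL55 or MRPS15 here, so it could not call these genes. Their means were 1.45 to 22.2 CPM, whereas MRPL40 and MRPS34, at 73.4 and 89.5 CPM, got one. How many others of the 77 lacked one was not counted. The DESeq2 result for the 77 genes therefore cannot be set against its 112 calls in all. Across the small subunit 6 of 29 genes were above zero with a median log2 fold change of -0.18, and across the large subunit 20 of 48 with a median of -0.03, against 0.00 over all genes. The small-subunit median rests on that one R72 library, and its median SE per gene was 0.31.

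MRPS5, counterpart of bacterial S5, shares 550 exonic bases with ZNF514 on the same strand. ZNF514 had 1195 counts, against 1929 for MRPS5. MRPS5 had the smallest p on R273H. It had 13.1 CPM in the R273H R72 library, against 19.1, 21.1, 19.3 and 17.5 CPM in R273H P72. That library was below all 4, with a log2 fold change of -0.63 (SE 0.21, edgeR adjusted p = 0.377). MRPL55 had 4 counts (0.373 CPM) in the R273H R72 library, against 20, 7, 16 and 31 counts (1.56, 0.821, 1.85 and 3.28 CPM) in R273H P72. Its log2 fold change of -2.20 carries an SE of 0.89 (edgeR adjusted p = 0.538). MRPS15 and MRPL40 came next, with log2 fold changes of -0.58 (SE 0.31) and 0.24 (SE 0.13) and edgeR adjusted p-values of 0.689 and 0.691.

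Whether the R72 effect differs between the hotspots was tested as the difference of the 2 effects, R273H minus R175H. None of the 77 genes passed, beside 0.0306% of all genes called, and 6 (7.79%) had an unadjusted p under 0.05, beside 10.2% of all genes. The smallest p was that of MRPS34, with a difference of 0.76 (SE 0.21, edgeR adjusted p = 0.186). For MRPS34 the R273H R72 library had 85.1 CPM, against 85.3, 79.9, 92.3 and 90.8 CPM in R273H P72, so this library lay inside the range of its P72 group. The R72 effect on R273H was 0.16 (SE 0.16). The difference was called by DESeq2 (adjusted p = 0.0457), without a filter on low counts, and without R273H P72 replicate 1. MRPS5 and MRPS22 had differences of -0.76 (SE 0.27) and -0.61 (SE 0.25), with edgeR adjusted p-values of 0.308 and 0.391. MRPL40 and MRPL55 had 0.41 (SE 0.17, edgeR adjusted p = 0.391) and -2.33 (SE 1.07, edgeR adjusted p = 0.460).

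Over both hotspots as 1 common effect, with 4 R72 and 7 P72 libraries, MRPL54 was lower with R72 and no other of the 77 genes passed. Over all genes 0.214% were called and 0.178% were lower in R72, against 1 of 77 here. MRPL54 (ENSG00000183617, chr19:3762664-3768575, plus strand, hg38) encodes a protein of the large subunit. It had 17.4 CPM in the R273H R72 library, against 24.7, 24.3, 20.8 and 22.2 CPM in R273H P72. It had 17.0, 16.8 and 21.1 CPM in R175H R72, against 25.9, 27.5 and 26.4 CPM in R175H P72. Within each hotspot every R72 library was lower than every P72 library, but the highest R72 value, 21.1 CPM on R175H, exceeds the lowest P72 value, 20.8 CPM on R273H. The log2 fold change was -0.50 (SE 0.10, edgeR adjusted p = 0.0307), and it was -0.50 on R175H and -0.51 on R273H, with edgeR adjusted p-values of 0.0532 and 0.469.

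Over the 10 fits that each leave out 1 library and keep R72 on both hotspots the MRPL54 fold change ran from -0.55 to -0.46 and was called in 4, losing its call when any 1 of the 3 R175H P72 libraries was left out, without R175H R72 replicates 1 or 2, and without R273H P72 replicate 4. Its 3′ end is 62.6% GC, the highest of the 6 called genes, and after GC correction the fold change was -0.38 (adjusted p = 0.16). MRPS34 came second over both hotspots with -0.33 (SE 0.12, edgeR adjusted p = 0.313), then MRPL38 with -0.24 (SE 0.09), MRPL53 with -0.25 (SE 0.10) and MRPL24 with -0.45 (SE 0.19), whose edgeR adjusted p-values ran from 0.347 to 0.408. The 7 genes with an unadjusted p under 0.05 (9.09%) were all lower in R72, beside 10.6% of all genes, of which 986 were lower and 750 higher.

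**Figure D3:**
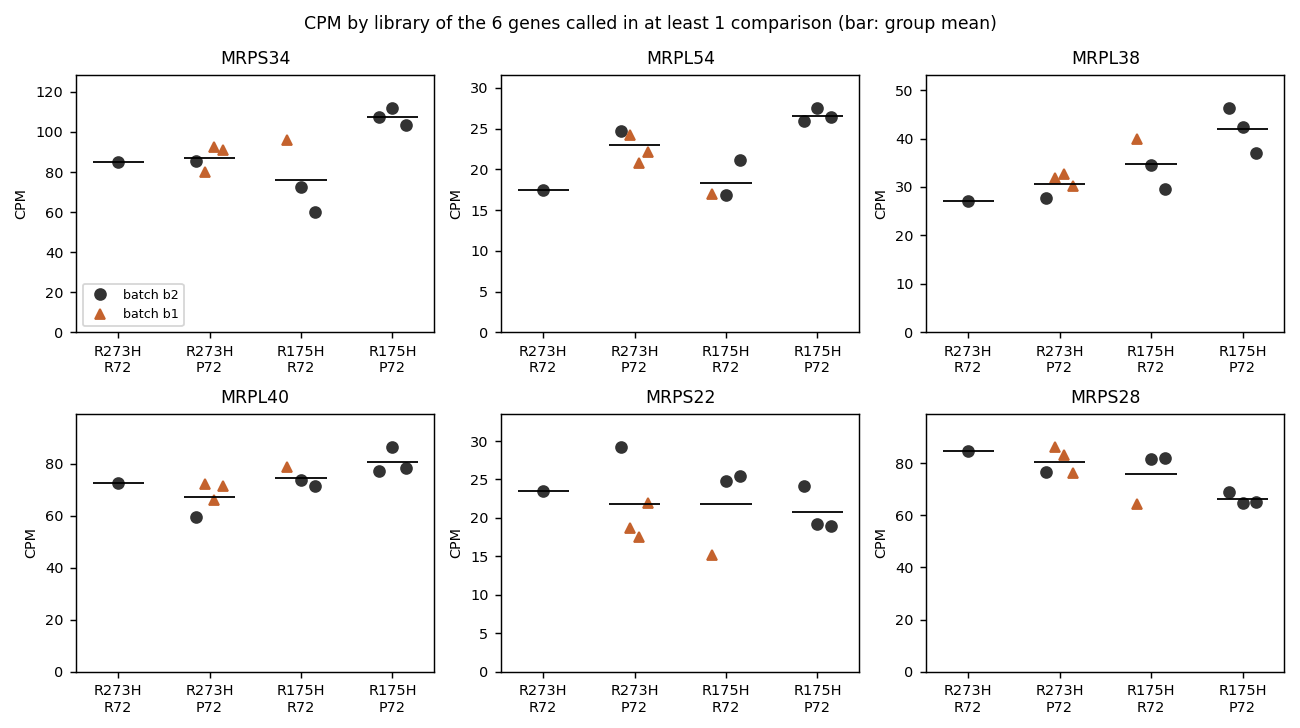
Level in CPM of the 6 genes that passed in at least 1 comparison, per library; bars are group means, circles batch b2 and triangles batch b1, and each axis starts at 0. MRPS34 lies at 60.1 to 95.9 CPM in R175H R72, against 104 to 112 CPM in R175H P72, and MRPS22 is split by batch within groups.

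The hotspot comparison on P72, R273H against R175H, had the most calls: MRPS22 and MRPS28 rose in R273H, and MRPL38, MRPS34 and MRPL40 fell. These 5 of 77 (6.49%) stand beside 14.6% of all genes called, with 6.95% of all genes called higher and 7.6% called lower. All 5 are among the 30 genes with at least 10 CPM, where 22.8% of all 8968 such genes were called. The members' share is thus below that of all genes. The 3 R175H P72 libraries serve here and in the R72 comparison on R175H, so a gene's values in both share them. Within batch b2 this comparison has 1 R273H P72 library. Its b2 values therefore rest on that library, with a spread taken from the other groups. Without R175H R72 replicate 1 every b1 library is R273H P72, so the batch term takes up the b1 libraries. The difference in that fit then rests on the same R273H P72 library, replicate 1.

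MRPL38 (ENSG00000204316, chr17:75898643-75905413, minus strand, hg38) had the smallest p. It had 27.8, 31.8, 32.8 and 30.1 CPM in R273H P72 (replicates 1 to 4), against 46.3, 42.4 and 37.1 CPM in R175H P72. The groups did not overlap, and the b2 library of R273H P72, replicate 1, was the lowest of all 7. The log2 fold change was -0.64 (SE 0.13, edgeR adjusted p = 0.00183). It was called in every one of the 11 fits that leave out a library and in all 10 other settings, where it ran from -0.64 to -0.46. Batch b2 alone, with 1 R273H P72 library, gave -0.59. It shares 172 exonic bases with AC087289.2 on the opposite strand, which had 20 counts in all libraries together, against 3788 for MRPL38.

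MRPS34 had 85.3, 79.9, 92.3 and 90.8 CPM in R273H P72, against 108, 112 and 104 CPM in R175H P72. The groups did not overlap, and the log2 fold change was -0.50 (SE 0.12, edgeR adjusted p = 0.00747). Leaving out the b1 library of R175H R72 and taking batch b2 alone both gave -0.34. Both fits rest on R273H P72 replicate 1. The fit that leaves out R273H P72 replicate 1 gave -0.82, and the fit with no batch term gave -0.31 (adjusted p = 0.0936).

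MRPL40 (ENSG00000185608, chr22:19431902-19436075, plus strand, hg38) had 59.6, 72.1, 66.1 and 71.6 CPM in R273H P72, against 77.3, 86.3 and 78.3 CPM in R175H P72. Every R273H P72 library was lower than every R175H P72 library, and the b2 library of R273H P72 was the lowest. The log2 fold change was -0.40 (SE 0.10, edgeR adjusted p = 0.0105). Its call was lost without that library, in batch b2 alone, where the value was -0.44 (adjusted p = 0.0551), and without a batch term, where it was -0.26 (adjusted p = 0.0652).

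MRPS22 (ENSG00000175110, chr3:139005806-139357223, plus strand, hg38) encodes a small-subunit protein whose inherited defects impair mitochondrial translation. It had 29.2, 18.7, 17.5 and 21.9 CPM in R273H P72, against 24.1, 19.3 and 18.98 CPM in R175H P72. The groups overlapped and their means were 21.8 ± 5.24 CPM (SD, n = 4) in R273H P72 and 20.8 ± 2.87 CPM (SD, n = 3) in R175H P72. The log2 fold change of 0.53 (SE 0.15, edgeR adjusted p = 0.0176) rests on the batch term: without it the value was 0.08 (adjusted p = 0.823). The call was also lost without R175H P72 replicate 2 or R273H P72 replicate 1. Within batch b2 the value was 0.49, and the fit without R175H R72 replicate 1 rests on the same R273H P72 library. The b1 library of R175H R72 had 15.2 CPM, against 24.8 and 25.4 CPM in its b2 libraries. MRPS22 shares 86 exonic bases with COPB2 on the opposite strand, which had 11081 counts, against 2410 for MRPS22.

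MRPS28 (ENSG00000147586), whose product is related to bacterial S1, had 76.8, 86.0, 83.3 and 76.2 CPM in R273H P72, against 68.7, 64.7 and 65.2 CPM in R175H P72. The groups did not overlap. The log2 fold change was 0.37 (SE 0.11, edgeR adjusted p = 0.0333). The call was lost in 6 of the 11 fits that leave out a library (R175H P72 replicate 2 or 4, any of the 3 R175H R72 libraries, or R273H P72 replicate 3). It was also lost with GC correction (adjusted p = 0.0685), with no batch term (adjusted p = 0.0623) and within batch b2, where the value was 0.21 (adjusted p = 0.336). The value was 0.66 without R273H P72 replicate 1. It was 0.21 without R175H R72 replicate 1, a fit that rests on the same R273H P72 library as batch b2.

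By subunit, the hotspot comparison on P72 gave a median log2 fold change of 0.15 over the 29 MRPS genes, 20 of them above zero, and of -0.01 over the 48 MRPL genes, 24 of them above zero, with 0.00 over all genes. The medians depend on the model: without a batch term the median over all 77 genes was -0.11, and with it 0.06. Without a batch term the calls were MRPL38, MRPL44, MRPL53 and MRPS35, all lower in R273H.

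**Figure D4:**
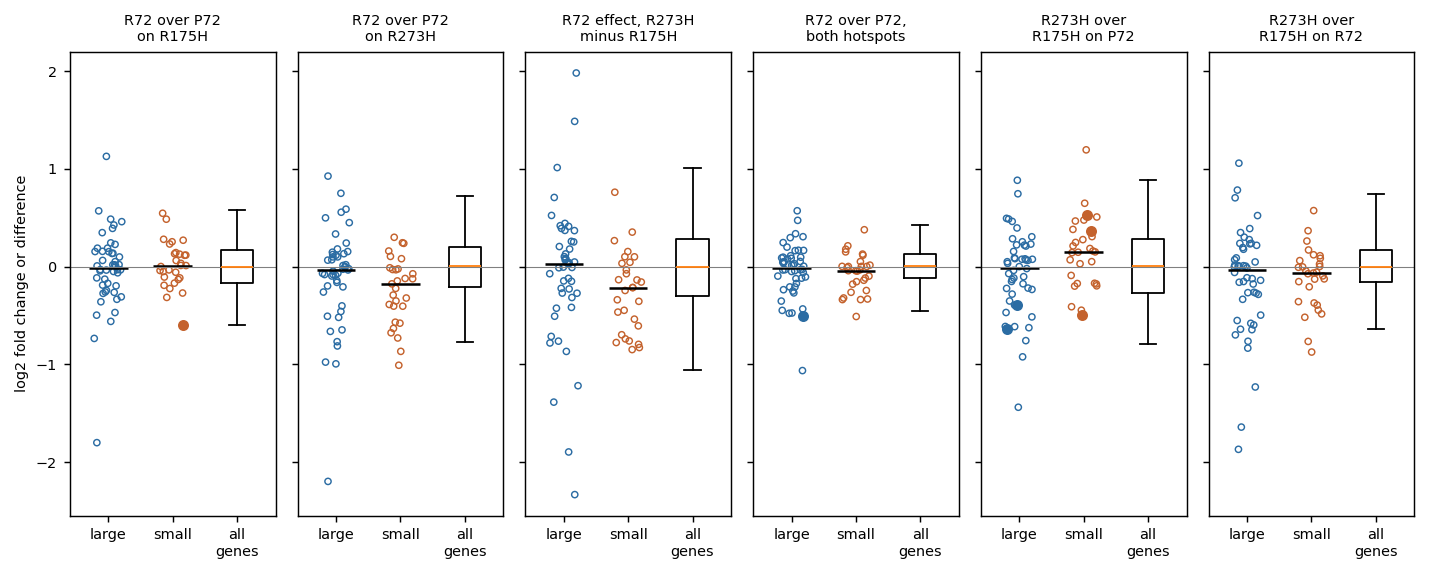
Log2 fold change of each MRPL gene (left of each panel) and MRPS gene (middle) in 6 comparisons, with filled points for called genes and black lines for medians; the box on the right spans the middle of all 16324 genes tested, with whiskers from the 5th to the 95th percentile. The medians of both subunits lie near 0, and the farthest are the small subunit on R273H (-0.18), in the difference of the R72 effects (-0.21) and in R273H over R175H on P72 (0.15).

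On R72 the hotspot comparison set the 1 R273H library against 3 R175H libraries, and none of the 77 genes passed, beside 0.0429% of all genes. DESeq2 called none of the 77 either and 14 genes in all, and 2 of the 77 (2.6%) had an unadjusted p under 0.05, beside 4.62% of all genes. MRPS5 had 13.1 CPM in the R273H R72 library, against 15.9, 19.96 and 17.6 CPM in R175H R72, with a log2 fold change of -0.48 (SE 0.20, edgeR adjusted p = 1.00). MRPL55, MRPL47, MRPL12 and MRPS34 followed, with log2 fold changes of -1.87, 0.52, -1.23 and 0.26 and edgeR adjusted p-values of 1.00.

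**Figure D5:**
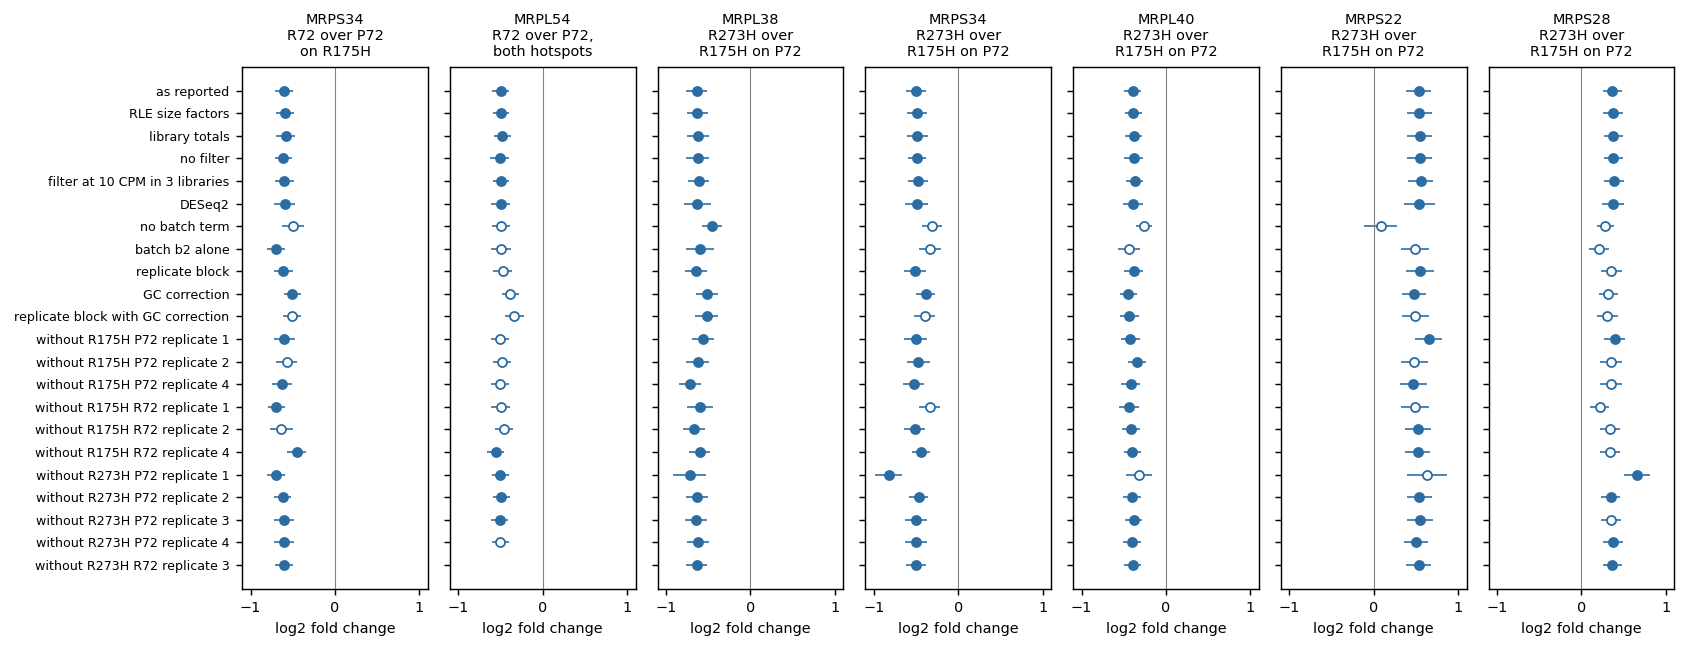
Log2 fold change with its SE for the 7 calls among these genes (MRPS34 in 2 comparisons), as reported and under each alternative setting; filled points had an adjusted p under 0.05 in that setting. MRPL38 is filled in every setting, MRPS22 drops to 0.08 without a batch term, and no value changes its sign; MRPL54 has no value without the only R273H R72 library.

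Genes that work with these proteins were looked at from lists chosen with earlier results of these data known. Of 7 mitoribosomal or ribosome-bound proteins under other names, AURKAIP1, a small-subunit protein, fell with R72 on R175H (log2 fold change -0.35, SE 0.08, edgeR adjusted p = 0.0386) and over both hotspots (-0.33, SE 0.07, edgeR adjusted p = 0.0345). It was the only gene of the 7 called in each (14.3%), beside 1.13% and 0.214% of all genes. Among all genes with at least 10 CPM, as AURKAIP1 has, the shares were 1.86% and 0.335%. Its levels were 137, 124 and 124 CPM in R175H R72, against 163, 167 and 149 CPM in R175H P72. The groups did not overlap. After GC correction the value on R175H was -0.15 (adjusted p = 0.525), and the call was lost in 6 of 11 fits that leave out a library on R175H and in 6 of 10 over both hotspots. In R273H against R175H on P72 GADD45GIP1, a large-subunit protein, and OXA1L, the inner-membrane insertase that binds the ribosome, fell. PTCD3, a small-subunit protein, rose. Their log2 fold changes were -0.39, -0.33 and 0.32, with edgeR adjusted p-values of 0.0141, 0.0302 and 0.0469. Of the 7 genes 42.9% were called in that comparison, beside 14.6% of all genes and 22.8% of those with at least 10 CPM.

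Assembly and ribosomal RNA modification factors gave 4 calls among 29 in the hotspot comparison on P72 (13.8%), beside the 14.6% of all genes. WBSCR16, RBFA, which matures the small subunit, and MTG1, a GTPase of large-subunit assembly, fell by 0.40, 0.55 and 0.37 on the log2 scale in R273H P72. RPUSD4, a pseudouridine synthase of the large ribosomal RNA, rose by 0.36. Their edgeR adjusted p-values were 0.00792, 0.0108, 0.0283 and 0.0270. Of the 17 translation factors TSFM, the exchange factor of the elongation factor, and SLIRP rose by 0.53 and 0.32, and LRPPRC, which stabilises mitochondrial messages in a complex with SLIRP, fell by 0.30 (edgeR adjusted p = 0.0181, 0.0404 and 0.0312). The 2 partners LRPPRC and SLIRP thus carried opposite signs. Calls made up 17.6% of the 17 translation factors, beside 14.6% of all genes and 22.8% of those with at least 10 CPM.

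TSFM followed the batch label in all groups that have both batches. It had 68.0 CPM in the b2 library of R273H P72, against 23.7, 29.9 and 30.8 CPM in its b1 libraries, and 50.2 and 45.1 CPM in the b2 libraries of R175H R72, against 26.1 CPM in its b1 library. R175H P72, all b2, had 37.0, 41.4 and 51.3 CPM. Without a batch term its log2 fold change was -0.17. Of the 13 genes of mitochondrial transcription and its regulators, PPRC1, a coactivator related to PGC-1α, rose in R273H P72 (0.50, SE 0.13, edgeR adjusted p = 0.0126), with 29.4, 31.1, 26.2 and 28.9 CPM in R273H P72, against 20.3, 22.9 and 21.6 CPM in R175H P72. PPRC1 was the only gene of the 13 called in that comparison (7.69%), beside 14.6% of all genes. NRF1, YY1 and the GABP genes GABPA and GABPB1, whose sequences were counted in the promoters, were called in none of the 6 comparisons (edgeR).

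By list, the median log2 fold change of R273H over R175H on P72 was -0.17 for the proteins under other names (2 of 7 above zero), -0.08 for the assembly and modification factors (10 of 29), -0.09 for the translation factors (5 of 17) and -0.01 for transcription and its regulators (5 of 13), beside 0.00 over all genes.

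Several of these calls of the hotspot comparison on P72 were lost when 1 library was left out. The fit without R175H R72 replicate 1 rests on R273H P72 replicate 1, as batch b2 alone does. Its losses and those within batch b2 are therefore not separate. Without R175H R72 replicate 1, the b1 library of its group, the calls of GADD45GIP1, OXA1L, PTCD3, WBSCR16, RBFA, MTG1, RPUSD4, SLIRP, LRPPRC and PPRC1 were lost, and RBFA had -0.35. Without R273H P72 replicate 1, the b2 library of its group, the calls of OXA1L, PTCD3, MTG1, SLIRP, LRPPRC, PPRC1 and TSFM were lost, TSFM had 0.25 and RBFA had -0.95. OXA1L and LRPPRC were also lost without R175H P72 replicates 1 or 2, RPUSD4 and TSFM likewise, and MTG1 without R175H P72 replicates 2 or 4. PTCD3 was called in 3 and SLIRP in 4 of the 11 fits that leave out a library. Within batch b2, where R273H P72 has 1 library, TSFM had 0.65. With no batch term WBSCR16, RPUSD4, LRPPRC and PPRC1 were called, whereas OXA1L had -0.12 and SLIRP 0.11.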

How the data were processed

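The deposited table has 1 column per library of estimated counts per gene, all of them whole numbers. The submitters' processing notes name Bowtie2, RSEM 1.2.12, DESeq2 and hg38, without order or settings. RSEM shares reads with several matches among genes, which bears on genes that have pseudogenes. The notes give neither the annotation nor the use of strand.

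From these counts, genes were kept by filterByExpr with the 4 groups as its factor (minimum count 10, minimum total 15), which left 16324. After TMM scaling, edgeR 4.0.16 in R 4.3.3 fitted a robust quasi-likelihood model of group and batch to all 11 libraries, and for the effect over both hotspots one with hotspot, codon 72 form and batch as additive terms. Adjusted p-values are Benjamini-Hochberg values over every gene tested, and a gene under 0.05 counts as called. CPM values use the TMM factors. No replicate pair looked like a duplicate (chi-square per degree of freedom 4.24 to 20.1 between their counts). The procedure was tested on simulated data that held no batch effect, so that test does not bear on the batch term. GC content was taken over the last 500 bases of GENCODE 29 transcripts.

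The genes, the lists of related genes and the tests were chosen with earlier results of these data known. Named were all called genes, the 5 smallest p-values per comparison, the 2 highest and 2 lowest genes of each subunit, and genes sharing a number. Genes called only without a batch term were named after their values were seen. Alternatives were RLE scaling, library totals, 2 other filters, DESeq2 1.42.0, no batch term, batch b2 alone, a replicate block, a GC correction (spline with 5 degrees of freedom), the last 2 together, and each library left out.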

Additional observations from a re-analysis of the deposited data

Results flagged for a closer look

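In 4 of 38 items looked at, 1 library of R273H P72 stood far from the other 3 of its group, a distance that chance gives in about 1 of 20 groups. All 4 were replicate 1, the 1 library of that group in batch b2, and its distance from the b1 libraries cannot be told apart from the batch. MRPS15 had 7.23 CPM there, against 5.04 to 5.18 CPM in the other 3. MRPS27 had 256 CPM, against 291 to 293 CPM. SLIRP had 580 CPM, against 498 to 511 CPM. TSFM had 68.0 CPM, against 23.7 to 30.8 CPM.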

How the results depend on the processing

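Counts of called genes among the 77 moved with the setting. For R72 over P72 on R175H (1 called) there were 2 with no filter, with the filter at 10 CPM in 3 libraries (31 of the genes tested) and with DESeq2, and 0 without a batch term and with the replicate block and GC correction together. For the difference of the R72 effects (0 called) there was 1 with no filter and with DESeq2. DESeq2 gave no adjusted p for that difference to MRPL54, MRPL55, MRPS5 or MRPS22. Over both hotspots (1 called) there were 2 with no filter, and 0 without a batch term, in batch b2 alone, with the replicate block, with GC correction and with both. For R273H over R175H on P72 (5 called) there were 8 with no filter and 2 with replicate block and GC correction. Batch b2 alone left 1 R273H P72 library there, and its count is not compared. The fit without R175H R72 replicate 1 rests on that library too, and the range below for this comparison leaves it out. Leaving out 1 library gave 0 to 2 on R175H, 0 to 1 for the difference, 0 to 1 over both hotspots (no fit without the only R273H R72 library, which leaves no codon 72 contrast on R273H) and 3 to 5 for the hotspots on P72.

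Uncalled or unstable values changed sign. MRPS34 with R72 on R273H was -0.033 without a batch term and -0.0074 in batch b2 alone, and -0.0035 to 0.47 with 1 library left out. For MRPL54 the difference of the R72 effects was 0.0085 with library totals, 0.14 without a batch term, 0.13 with the replicate block, and -0.15 to 0.14 with 1 library left out. MRPL54 in R273H over R175H on P72 was 0.095 with GC correction and 0.12 with the replicate block added; on R72 these were 0.046 with the block alone and 0.088 with both. For MRPS22 the difference was 0.023, and TSFM on P72 was -0.17, without a batch term. The difference in log2 ratio of large to small on P72 kept its sign but moved from -0.12 to -0.000525 in batch b2 alone. The cause was not tested.

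Deviations from the group mean of same-numbered R175H R72 and P72 libraries correlated at 0.00052, -0.069 and 0.25. Between same-numbered R273H P72 and R175H libraries the correlations ran from -0.61 to 0.087. Batch was not removed from these deviations, and R175H R72 replicate 1 is the b1 library of its group. The correlations therefore cannot decide whether replicate numbers pair the libraries. With the replicate block MRPS34 with R72 on R175H was -0.61 (edgeR adjusted p = 0.015). In that comparison 81 genes were called in all, against 185 without the block. For R273H over R175H on P72, MRPS28 had an edgeR adjusted p of 0.0718 with the block (0.124 with GC correction). There 1776 genes were called in all with the block, against 2376 without. Moving MRPS18A and MRPS30 to the large subunit and leaving out MRPS36, chosen after seeing the data, gave -0.03 and -0.12 for the 2 log2 ratio differences. Genes under 10 CPM, with a median SE of 0.35 or more on R175H and P72, could show large changes only.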
